A study of Mus musculus with 45 samples.

Results

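Hsd11b1, Nr3c1, Hsd3b2, Cyp17a1 and Hsd17b2 are 5 genes of steroid and glucocorticoid metabolism that were measured here in mouse liver, epididymal fat and skeletal muscle. They were found on the array by their gene symbols, as 6 of its 12488 probe sets and 5 of the 8251 genes tested. The 5 were chosen by their role and with liver values of these arrays in view, among them the diet differences of Hsd11b1, Hsd17b2 and Cyp17a1. Liver comparisons of the 5, and every comparison of Hsd11b1 that involves liver or fat, are therefore descriptions with a standard error and no p-value. All levels are log2 units of RMA values.

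The mice were 6 months old and ate a high-fat or a low-fat diet. They belonged to C57Bl/6, called B6 here, or to 129S6/SvEvTac, called 129S6, both inbred. Each array carried labelled cRNA from 25 µg of RNA pooled from 2 to 3 mice, so a replicate is a pool. Liver had 4 high-fat and 4 low-fat arrays in each strain. Fat had 4 high-fat and 4 low-fat B6 arrays and 3 high-fat and 3 low-fat 129S6 arrays, and muscle had 4 arrays in every group but B6 low-fat, which had 3. The labels name no transgene or deletion, and the design text describes a single standard diet, so the sources used here do not give what the high-fat and low-fat diets contained. Diet differences are given as high-fat minus low-fat and strain differences as B6 minus 129S6.

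Glucocorticoids are made in the adrenal gland and act through the glucocorticoid receptor, a nuclear receptor encoded by Nr3c1. Within liver and fat cells, the enzyme encoded by Hsd11b1 turns the inert keto form of the hormone back into active corticosterone, using NADPH that H6pd supplies inside the endoplasmic reticulum. Cyp17a1, a hydroxylase and lyase, and the Hsd3b family, which turns hydroxysteroid precursors into ketosteroids, take part in steroid synthesis. Hsd17b2 oxidises estradiol and testosterone to their weaker keto forms.

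On the GRCm38.p6 assembly, Hsd11b1 lies on chromosome 1 (193221640 to 193264045), Hsd3b2 on chromosome 3 (98711107 to 98724543), Hsd17b2 on chromosome 8 (117700982 to 117759030), and Cyp17a1 on chromosome 19 (46667165 to 46673000). Promoter sequences from RefSeq (GRCm38.p6) are shown for Hsd11b1 and Hsd3b2, the member set against fat here and the member with the widest span between liver groups. Each is the 250 bases before the annotated start, on the minus strand, at chr1:193242361-193242610 for Hsd11b1 and chr3:98724544-98724793 for Hsd3b2. The Hsd11b1 start of this entry lies inside the span annotated for the gene. Capitals mark matches on either strand to CCAAT (the CCAAT box), TGTTCT (a glucocorticoid response element half-site), TATAAA (the TATA box) or TTGNNNCAA (a C/EBP-like palindrome).
Hsd11b1: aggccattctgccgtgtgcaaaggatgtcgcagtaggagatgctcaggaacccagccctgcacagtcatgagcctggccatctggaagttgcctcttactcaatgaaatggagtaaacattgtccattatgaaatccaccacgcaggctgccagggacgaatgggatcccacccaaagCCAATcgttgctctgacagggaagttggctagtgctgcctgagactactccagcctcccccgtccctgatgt
Hsd3b2: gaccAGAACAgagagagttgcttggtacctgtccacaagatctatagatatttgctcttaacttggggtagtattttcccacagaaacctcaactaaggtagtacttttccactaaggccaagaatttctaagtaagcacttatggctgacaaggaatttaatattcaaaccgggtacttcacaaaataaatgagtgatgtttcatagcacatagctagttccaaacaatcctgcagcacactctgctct
The Hsd11b1 window held 1 CCAAT box, at -72 to -68 from the start, and none of the other 3 motifs. In the Hsd3b2 window 1 half-site stood on the opposite strand, at -246 to -241, and none of the other 3 was found. Among 32851 promoter windows of the same length, 33.8% held CCAAT, 16.1% TGTTCT, 12.4% TATAAA and 5.02% TTGNNNCAA, so a single match is common.

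The tissue labels held against their markers. The mean of 5 hepatocyte genes was 11.60 to 12.23 on liver arrays, that of 6 muscle fibre genes 10.02 to 11.76 on muscle arrays, and that of 4 adipocyte genes 10.11 to 11.08 on fat arrays. Fat arrays also carried epididymis genes (Lcn5 and Adam7, mean 5.52 to 11.73, against 4.84 to 5.00 in liver) and germ cell genes, highest in B6 pads. The Gapdh 3' minus 5' signal, which is large where RNA is degraded, was 5.81 and 5.93 on 129S6 high-fat fat replicates 12 and 13 and 6.03 on B6 high-fat fat replicate 7, and at most 0.24 on every low-fat fat array. Each title carries a serial number, and arrays with near numbers were grouped here into what are called runs. The labels give no such groups and do not say what the number marks, so results by run rest on these cuts. All B6 low-fat liver arrays formed a run of their own among the livers, so this run and the B6 low-fat group cannot be told apart. In number they follow directly on the muscle arrays. The high-fat livers of B6 and of 129S6 were in different runs, and the 129S6 low-fat livers were split between these. All B6 fat arrays shared a run with 129S6 low-fat replicate 9, and the other 129S6 fat arrays were in another. Strain differences in fat and in high-fat liver thus go largely with the run. With the run as a block, those in fat rest on 129S6 low-fat replicate 9, and those in high-fat liver on the 129S6 low-fat arrays. A lower level in bulk RNA can come from fewer cells of a type or from less RNA per cell, and these cannot be told apart either.

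Hsd11b1 was lower on the high-fat diet, without overlap between the diets, in 1 tissue of each strain, the liver of B6 mice and the fat of 129S6 mice. B6 livers read 8.87, 9.26, 9.04 and 9.03 on the high-fat diet, against 10.42, 10.70, 10.20 and 10.47 on the low-fat diet. The groups did not overlap, and the difference was -1.39 ± 0.15 (SE), 2.63-fold lower. 129S6 livers averaged 10.29 ± 0.13 on the high-fat diet and 10.36 ± 0.34 on the low-fat diet (SD, n = 4 each), a difference of -0.07 ± 0.15 with overlapping groups, whose sign turned with the Gapdh signal as a covariate (0.06). Subtracting the 129S6 diet difference from the B6 one gave -1.32 ± 0.21.
Hsd11b1 was the 17th largest of all 8251 liver diet differences in B6 by size. The B6 low-fat livers had a Gapdh 3' minus 5' signal of 0.82 to 1.69, against 0.22 to 0.35 on the high-fat arrays, and with that signal as a covariate the Hsd11b1 difference in B6 was -1.24 ± 0.14. Over the 24 alternatives tried this difference ran from -1.48 to -1.13. Cell markers also differed between high-fat and low-fat B6 livers, given in that order. Hepatocyte genes averaged 11.60 to 12.03 against 12.05 to 12.14, and red blood cell genes 9.68 to 9.99 against 10.52 to 11.16. Fibroblast genes averaged 7.76 to 8.23 against 7.38 to 7.65, and endothelial genes 6.74 to 6.80 against 6.55 to 6.67. Macrophage genes overlapped (7.05 to 8.28 against 7.04 to 7.23). The part of these cells in the Hsd11b1 difference was not tested.

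In fat the strains were the other way round. The 129S6 fat pads read 7.64, 7.59 and 6.85 for Hsd11b1 on the high-fat diet, against 9.62, 9.06 and 8.90 on the low-fat diet. Every high-fat array was below every low-fat one, and the difference was -1.83 ± 0.29, 3.57-fold lower. B6 fat pads read 7.18, 7.38, 8.34 and 7.72 on the high-fat diet, against 7.84, 7.88, 7.91 and 8.08 on the low-fat diet, a difference of -0.27 ± 0.25 with overlapping groups. The highest of the B6 high-fat values was that of replicate 7, the array with the Gapdh signal of 6.03, and the lowest 129S6 value was that of replicate 14, whose Gapdh signal was 0.37. Without the arrays whose Gapdh signal was above 3 the differences were -2.35 ± 0.26 in 129S6 and -0.50 ± 0.17 in B6, and with the signal as a covariate -2.46 and -0.63. Subtracting the 129S6 diet difference from the B6 one gave 1.56 ± 0.38 over all fat arrays and 1.83 ± 0.22 with the Gapdh signal as a covariate. Within the run of arrays that holds both 129S6 diets apart from low-fat replicate 9, the 129S6 difference was -1.62 ± 0.27. It was -2.46 to -1.58 over the 24 alternatives tried.

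**Figure D1:**
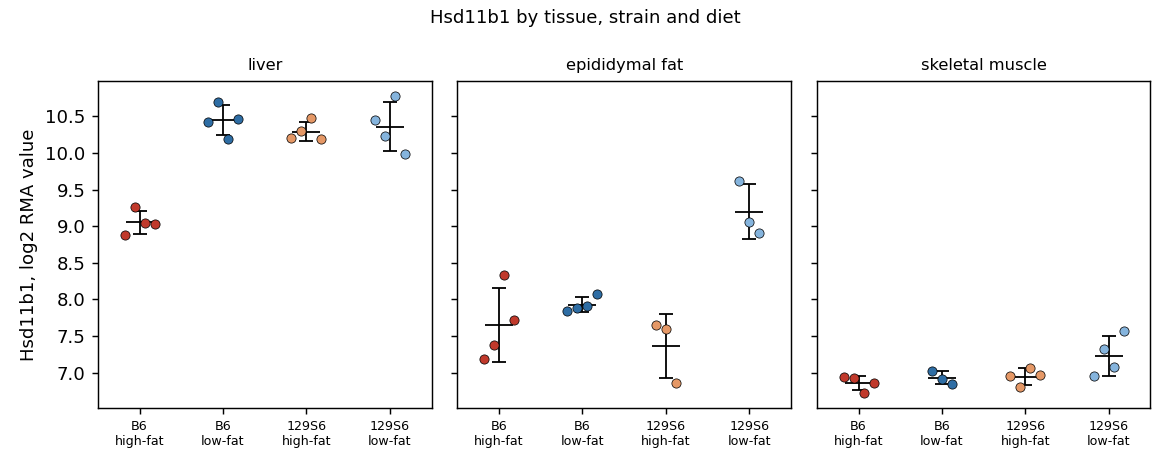
Hsd11b1 level (y axis, log2 RMA value) on every array of liver, epididymal fat and skeletal muscle, by strain and diet (x axis). Points are arrays, bars the mean ± SD. The B6 high-fat livers sit at 8.87 to 9.26, below all other livers, and the 129S6 low-fat fat pads at 8.90 to 9.62, above all other fat pads.

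Fat differed in its cell markers as well. The mean of 6 macrophage genes was 8.40 to 8.92 in 129S6 high-fat pads, against 7.52 to 7.91 in 129S6 low-fat pads, and 8.72 to 9.24 in B6 high-fat pads, against 8.24 to 8.89 in B6 low-fat pads. The group with the lowest macrophage genes, 129S6 on the low-fat diet, had the highest Hsd11b1. Between the high-fat groups the order was not inverse, though their Hsd11b1 arrays overlapped. B6 high-fat pads had the higher macrophage genes (group mean 9.00, against 8.61 in 129S6) and also the higher Hsd11b1 (7.65, against 7.36). The 5 fibroblast genes averaged 9.53 to 9.78 in 129S6 high-fat pads and 9.10 to 9.24 in 129S6 low-fat pads. In B6 pads they averaged 9.56 to 10.18 on the high-fat diet and 9.08 to 9.48 on the low-fat diet, also without overlap. The 5 endothelial genes averaged 6.78 to 7.07 in 129S6 high-fat pads and 7.37 to 7.44 in 129S6 low-fat pads, without overlap. In B6 pads they averaged 6.77 to 7.30 on the high-fat diet and 7.07 to 7.50 on the low-fat diet, with overlap. The 4 adipocyte genes averaged 10.11 to 11.08 in 129S6 high-fat pads and 10.57 to 10.96 in 129S6 low-fat pads, with overlap. Hepatocyte genes, at 11.60 and above in liver, averaged 6.25 to 7.62 in 129S6 high-fat pads and 6.83 to 8.08 in 129S6 low-fat pads, with overlap. Between the strains on the low-fat diet they did not overlap, with 5.83 to 6.62 in B6 low-fat pads, against the 6.83 to 8.08 of 129S6 low-fat pads. The 2 red blood cell genes averaged 9.72 to 10.54 in 129S6 high-fat pads and 10.74 to 10.96 in 129S6 low-fat pads, and 9.87 to 10.55 in B6 low-fat pads. The 2 epididymis genes averaged 5.52 to 10.97 in B6 high-fat pads and 6.32 to 11.73 in B6 low-fat pads. In 129S6 pads they averaged 6.25 to 6.91 on the high-fat diet and 5.75 to 7.55 on the low-fat diet. The part of these cells in the Hsd11b1 differences was not tested.

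Set side by side, Hsd11b1 was higher in liver than in fat in all 4 strain and diet groups, by unequal amounts. Liver minus fat was 1.40 ± 0.19 in B6 on the high-fat diet and 2.52 ± 0.19 in B6 on the low-fat diet. In 129S6 it was 2.93 ± 0.20 on the high-fat diet and 1.16 ± 0.20 on the low-fat diet. The gap thus narrowed on the high-fat diet in B6 and widened in 129S6. The diet difference in liver minus that in fat was -1.12 ± 0.26 in B6 and 1.76 ± 0.28 in 129S6. Over all genes the median of these quantities was at most 0.05 from 0.

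The order of the 12 groups for Hsd11b1 ran from B6 low-fat liver (10.45) through 129S6 low-fat liver (10.36) and 129S6 high-fat liver (10.29), whose arrays overlap with their neighbours, to a group of 2 that also overlap, 129S6 low-fat fat (9.20) and B6 high-fat liver (9.05). Thus 129S6 fat on the low-fat diet reached the level of B6 liver on the high-fat diet. B6 low-fat fat (7.93), B6 high-fat fat (7.65) and 129S6 high-fat fat (7.36) followed, and each overlapped with the next. Muscle, which overlapped with the last of these, was lowest, with 7.23 in 129S6 low-fat, 6.95 in 129S6 high-fat, 6.93 in B6 low-fat and 6.86 in B6 high-fat mice. In B6 minus 129S6, Hsd11b1 differed by -1.24 ± 0.15 in liver on the high-fat diet, without overlap, and by 0.08 ± 0.15 on the low-fat diet, whose sign turned after quantile normalization (-0.19). In fat this strain difference was 0.29 ± 0.27 on the high-fat diet (-0.35 with the array runs as a block) and -1.27 ± 0.27 on the low-fat diet, again without overlap for the second. That low-fat fat difference was -1.70 with the array runs as a block and -1.22 with the array SD as a covariate, and -1.42 to -1.06 with each array left out in turn. The hepatocyte genes given above, higher in 129S6 low-fat pads, moved with it, and their part in it was not tested.

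Nr3c1, the glucocorticoid receptor, on chromosome 18 (39410545 to 39519421), was read by 1 dim probe set. Its mean stood at the 9.84th percentile of all probe sets in liver, the 4.84th in muscle and the 20.7th in fat. B6 livers read 3.67, 4.02, 3.64 and 3.82 on the high-fat diet, against 3.19, 3.28, 3.46 and 3.14 on the low-fat diet, a difference of 0.52 ± 0.16 without overlap. All 4 high-fat values were above the 4 low-fat ones. 129S6 livers averaged 3.86 ± 0.31 on the high-fat diet and 3.87 ± 0.33 on the low-fat diet (SD, n = 4 each), and differed by -0.01 ± 0.16. The strain difference in liver was -0.08 ± 0.16 on the high-fat diet and -0.60 ± 0.16 on the low-fat diet, and 129S6 low-fat replicate 11, at 3.38, overlapped with the B6 arrays. The B6 diet difference kept its sign in all 23 alternatives and ran from 0.29, with the Gapdh signal as a covariate, to 0.58, without B6 low-fat replicate 3. It was 0.35 with the array SD as a covariate and 0.52 ± 0.13 without the array whose Gapdh signal was above 3. The low-fat strain difference kept its sign in 23 of 23 as well and ran from -0.76, without 129S6 low-fat replicate 11, to -0.43, with the array SD as a covariate. The diet differences of the strains differed by 0.52 ± 0.23, and by 0.69 ± 0.19 without 129S6 low-fat replicate 11.

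In fat Nr3c1 was lowest on the 3 arrays with a Gapdh signal above 5. High-fat 129S6 pads read 3.41, 3.13 and 4.36, against 5.47, 5.43 and 5.43 on the low-fat diet. The Gapdh signals of those 3 high-fat arrays were 5.81, 5.93 and 0.37. High-fat B6 pads read 4.69, 4.69, 2.85 and 4.43, against 4.70, 5.02, 4.61 and 5.28 on the low-fat diet, and the value of 2.85 belonged to replicate 7. The diet difference was -1.81 ± 0.43 in 129S6 (adjusted p = 0.0851) and -0.74 ± 0.37 in B6 (adjusted p = 0.351), neither past the threshold. With the Gapdh signal as a covariate it was -0.81 in 129S6 (adjusted p = 0.259) and -0.17 in B6 (adjusted p = 0.764). The 129S6 value passed in a fit of those 2 groups alone (adjusted p = 0.0374), with the arrays above 3 left out (-1.08, adjusted p = 0.0331), without B6 replicate 7 (-1.81, adjusted p = 0.00159) and without 129S6 high-fat replicate 14 (-2.17, adjusted p = 0.0341), and its adjusted p over all alternatives ran from 0.00159 to 0.3. The one 129S6 high-fat array with a low Gapdh signal, replicate 14 at 4.36, was also below the 3 low-fat arrays. The strain differences of Nr3c1 in fat were 0.53 ± 0.40 on the high-fat diet (adjusted p = 0.779) and -0.54 ± 0.40 on the low-fat diet (adjusted p = 0.829). The first passed without B6 high-fat replicate 7 (0.97, adjusted p = 0.0311) and the second without the arrays above 3 (adjusted p = 0.045), with ranges over all alternatives of 0.0311 to 1 and 0.045 to 1.

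**Figure D2:**
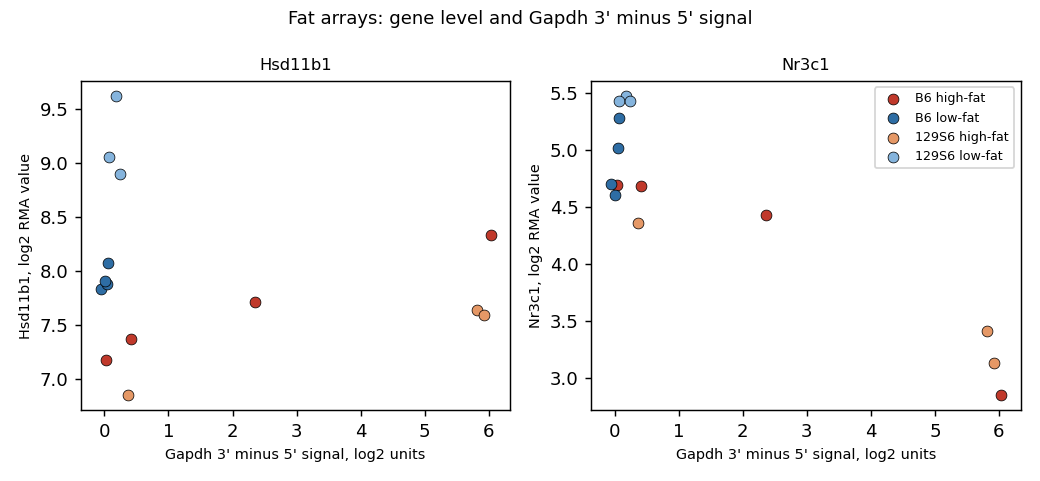
Level of Hsd11b1 (left) and Nr3c1 (right) on each of the 14 fat arrays (y axis, log2 RMA value) against the array's Gapdh 3' minus 5' signal (x axis, log2 units). Nr3c1 was at 2.85 to 3.41 on the 3 arrays above 5 on the x axis, and Hsd11b1 on those arrays was at 7.59 to 8.34.

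Hsd3b2 differed between the strains in liver on both diets. B6 livers read 7.01, 6.97, 7.27 and 7.13 on the high-fat diet, against 8.84, 9.52, 8.92 and 8.89 in 129S6 livers on that diet. On the low-fat diet B6 livers read 8.06, 7.98, 8.17 and 8.38, against 9.14, 9.00, 10.84 and 9.90 in 129S6 livers. No B6 array reached a 129S6 array on either diet, and the strain difference was -1.95 ± 0.28 on the high-fat diet (-3.24 with the array runs as a block) and -1.57 ± 0.28 on the low-fat diet. The high-fat diet came with a difference of -1.05 ± 0.28 in B6, without overlap, and of -0.68 ± 0.28 in 129S6, with overlap (-0.03 within the run that holds both 129S6 diets). The B6 diet difference was -0.42 ± 0.35 with the array SD as a covariate and -0.59 with the Gapdh signal as a covariate, and -1.11 to -0.97 with each array left out in turn. The 129S6 value of 10.84 came from low-fat replicate 11, the 1 liver array with a Gapdh signal above 3 (3.26), and without it the strain difference on the low-fat diet was -1.20 and the 129S6 diet difference -0.30. The diet differences in B6 and 129S6 differed by -0.38 ± 0.40, whose sign turned with the array SD as a covariate (0.29).

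The Hsd3b genes are close copies of each other, and how far the Hsd3b2 probe set also reads its neighbours was not tested. Of the other 5 measured members of the family, none was lower in B6 past the threshold on both diets. On the low-fat diet Hsd3b3 and Hsd3b6 were higher in B6, by 0.74 ± 0.20 and 0.49 ± 0.15 (adjusted p = 0.0222 and 0.0369). On the high-fat diet Hsd3b6 was lower in B6 (-0.54 ± 0.15, adjusted p = 0.041). These 3 calls ended without any 1 of 3, 6 and 11 of the 16 liver arrays. Hsd3b5, a ketosteroid reductase of male mouse liver, was at 5.25 in B6 and 8.23 in 129S6 livers on the high-fat diet, a strain difference of -2.99 ± 0.41 (adjusted p = 0.000264). On the low-fat diet it was at 9.14 in B6 and 9.07 in 129S6 livers, a strain difference of 0.07 ± 0.41 (adjusted p = 0.931). On the high-fat diet Hsd3b6 fell in B6 by 0.88 ± 0.15 and Hsd3b3 by 0.73 ± 0.20 (adjusted p = 0.000767 and 0.0195), whereas in 129S6 the differences were 0.15 and 0.10 and did not pass (adjusted p = 0.868 and 0.944). The Hsd3b3 call ended without B6 low-fat replicate 4 (-0.65) or B6 high-fat replicate 15 (-0.59) and with the Gapdh signal (-0.53) or the array SD (-0.18) as a covariate. Hsd3b7, which acts in bile acid synthesis, fell by 0.41 ± 0.14 in B6 (adjusted p = 0.0487), a call that ended without any 1 of 13 of the 16 liver arrays and in 5 of 8 other settings (adjusted p 0.00693 to 0.711). In B6 livers Hsd3b1, the gonadal and adrenal form, was at 4.97 on the high-fat diet, against 5.17 on the low-fat diet (adjusted p = 0.224).

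Cyp17a1 went the same way in the liver of both strains. B6 livers read 7.57, 7.96, 7.58 and 7.60 on the high-fat diet, against 6.87, 7.12, 6.71 and 6.80 on the low-fat diet. 129S6 livers read 7.52, 7.78, 7.61 and 7.50 on the high-fat diet, against 7.03, 7.09, 6.92 and 6.75 on the low-fat diet. Every high-fat array lay above every low-fat array, with differences of 0.80 ± 0.11 in B6 and 0.66 ± 0.11 in 129S6. The strains differed by 0.07 ± 0.11 on the high-fat diet and by -0.07 ± 0.11 on the low-fat diet, and the diet differences of the strains by 0.15 ± 0.16. The 129S6 difference was 0.55 with the array runs as a block and within the run that holds both 129S6 diets, and 0.59 to 0.71 with each array left out in turn. A second Cyp17a1 probe set was dim, between 3.06 and 4.17 on all arrays, and gave 0.34 ± 0.09 in B6 and 0.11 ± 0.09 in 129S6 livers.

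By the brightest probe set of each gene, Hsd17b2 had the smallest SD of the 5 within both B6 liver groups. B6 livers read 7.09, 7.14, 7.21 and 7.11 on the high-fat diet, against 8.38, 8.50, 8.47 and 8.54 on the low-fat diet, a difference of -1.34 ± 0.11, 2.53-fold lower. 129S6 livers read 8.16, 8.15, 7.96 and 7.94 on the high-fat diet, against 7.88, 7.61, 8.16 and 8.13 on the low-fat diet, a difference of 0.11 ± 0.11 with overlap. On the low-fat diet B6 livers were thus higher than 129S6 livers, by 0.53 ± 0.11, and on the high-fat diet lower, by -0.91 ± 0.11 as a signed difference, without overlap either time. The B6 diet difference of Hsd17b2 ran from -1.37 to -1.13 over the 24 alternatives tried. The low-fat strain difference was 0.32 with the array SD as a covariate. Subtracting the 129S6 diet difference from the B6 one gave -1.44 ± 0.15.

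**Figure D3:**
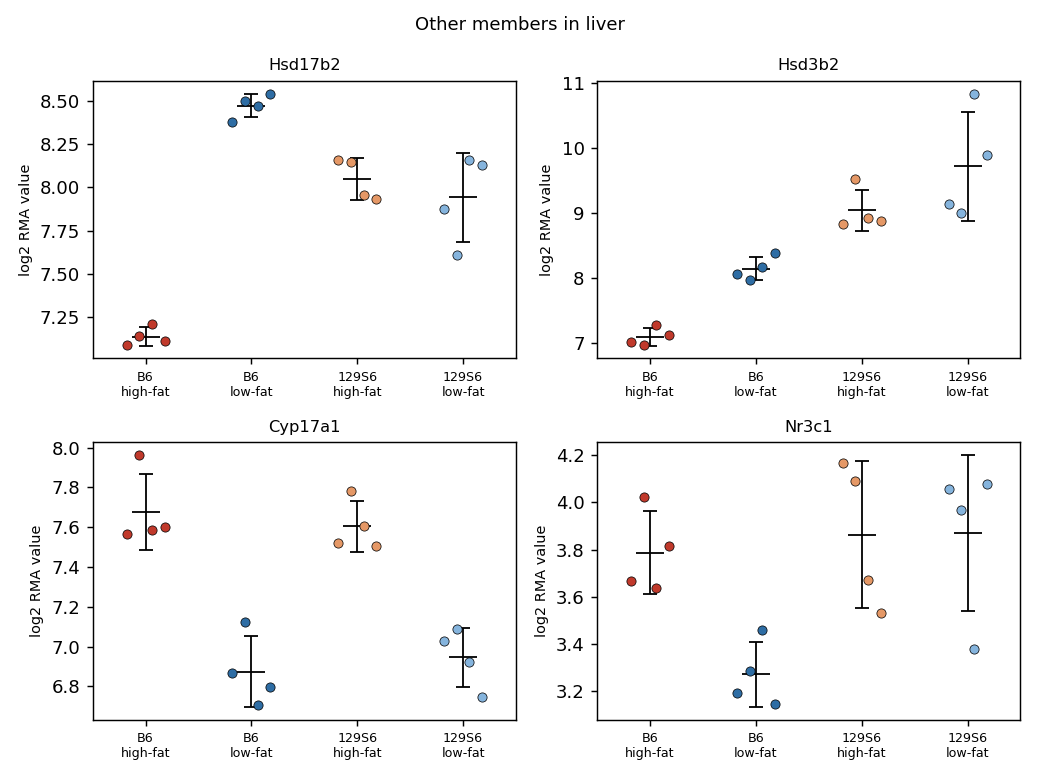
Levels of Hsd17b2, Hsd3b2, Cyp17a1 and Nr3c1 (y axes, log2 RMA value, each with its own range) on the 16 liver arrays by strain and diet (x axis). Points are arrays, bars the mean ± SD. Hsd17b2 separates the B6 high-fat livers (7.09 to 7.21) from all others, Hsd3b2 the strains, and Cyp17a1 the diets (7.50 to 7.96 on high-fat, 6.71 to 7.12 on low-fat).

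In fat, the enzymes other than Hsd11b1 showed no diet or strain difference past the threshold. Hsd17b2 and Hsd3b2 were dim there, at the 24.8th and 19.8th percentile of all probe sets, and Cyp17a1 was at the 63.6th. Across the fat arrays, Hsd17b2 ran from 4.37 to 5.03, Hsd3b2 from 4.05 to 4.91 and Cyp17a1 from 6.35 to 7.34. Hsd17b2 in fat differed between the diets by -0.16 ± 0.13 in B6 and -0.11 ± 0.15 in 129S6 (adjusted p = 0.5 and 0.756), and Hsd3b2 by -0.12 ± 0.13 and 0.07 ± 0.15 (adjusted p = 0.609 and 0.855). Cyp17a1, higher on the high-fat diet in liver, differed in fat by -0.39 ± 0.20 in B6 and -0.28 ± 0.23 in 129S6 (adjusted p = 0.351 and 0.597). Leydig cells of the testis make Cyp17a1, and the mean of 6 germ and Leydig cell genes was 6.53 to 7.63 in B6 high-fat pads, against 6.02 to 7.88 in B6 low-fat pads, and 6.08 to 6.60 in 129S6 high-fat pads, against 5.88 to 6.31 in 129S6 low-fat pads. Their part in the Cyp17a1 values was not tested. The strain difference nearest to the threshold was that of Hsd3b2 on the high-fat diet. High-fat B6 pads read 4.36, 4.30, 4.22 and 4.05 for Hsd3b2, against 4.91, 4.84 and 4.51 in 129S6 pads, a difference of -0.52 ± 0.14 (adjusted p = 0.19). It passed without B6 high-fat replicate 7 (-0.51, adjusted p = 0.043), with a range over all alternatives of 0.043 to 1.

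In muscle none of the 5 genes passed limma's threshold in any of the 5 comparisons, and 1 of the 5 had an unadjusted p under 0.05 in each diet and strain comparison. Of all 8251 genes, limma gave such a p for 3708 for diet in B6, 151 for diet in 129S6, 3790 for strain on the high-fat diet and 503 for strain on the low-fat diet. Hsd11b1 lay between 6.72 and 7.57, Cyp17a1 between 6.12 and 6.80, Hsd17b2 between 4.85 and 6.09, Hsd3b2 between 4.18 and 5.54 and Nr3c1 between 3.03 and 3.96. Muscle Hsd11b1 differed between the diets by -0.07 ± 0.14 in B6 and -0.28 ± 0.13 in 129S6 (adjusted p = 0.698 and 0.992). The value nearest to the threshold was that of Hsd3b2 in B6, with 4.79, 4.85, 5.54 and 4.50 on the high-fat diet, against 4.29, 4.58 and 4.24 on the low-fat diet. This was a difference of 0.55 ± 0.20 (adjusted p = 0.058), which passed without B6 high-fat replicate 8 (0.69, adjusted p = 0.0288) or 129S6 low-fat replicate 9 (adjusted p = 0.0443), with a range of 0.0288 to 0.618 over the alternatives. The strain difference of Hsd3b2 on the high-fat diet was 0.46 ± 0.19 (adjusted p = 0.0754) and passed without B6 high-fat replicate 8 (0.60, adjusted p = 0.0317), with a range of 0.0317 to 0.695. The Gapdh signal was 1.19 to 3.36 on B6 high-fat muscle arrays, against 0.35 to 0.81 on B6 low-fat ones. It was 4.43 on 129S6 high-fat replicate 1, and leaving out the muscle arrays above 3 together was not tried.

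**Figure D4:**
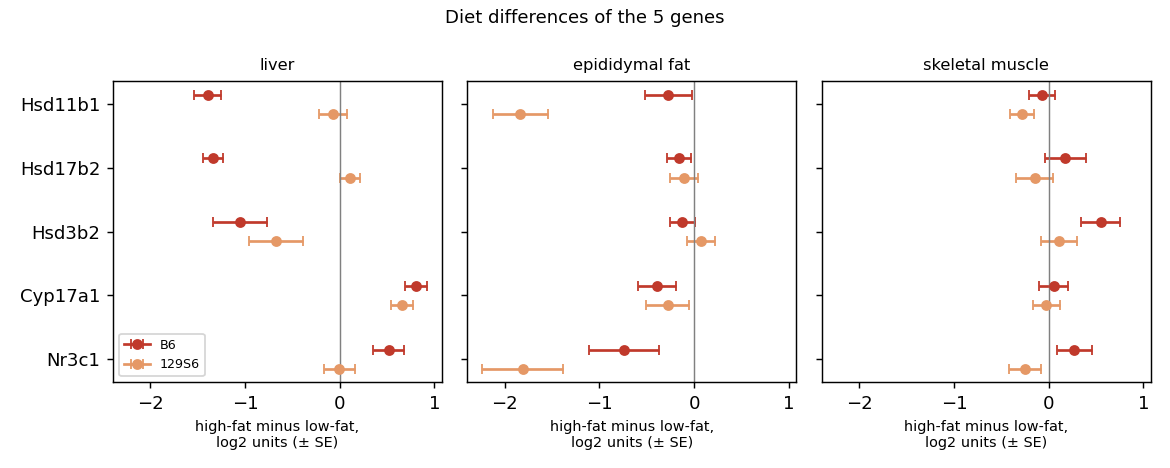
Diet difference (x axis, high-fat minus low-fat, log2 units, bars ± SE) of each of the 5 genes (y axis) in liver, epididymal fat and skeletal muscle, in B6 and 129S6. Hsd11b1 is at -1.39 in B6 liver and -0.07 in 129S6 liver, and at -0.27 in B6 fat and -1.83 in 129S6 fat.

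Read against all genes, the counts of the 5 are as follows. In B6 liver all 5 were past the threshold for diet, where 18.2% of the 8251 genes were, and in 129S6 liver 1 was, Cyp17a1, where 0.230% were. For strain in liver, 3 of 5 were past it on the high-fat diet (5.16% of genes) and 3 of 5 on the low-fat diet (13.8%), and for the difference of the diet effects 2 of 5, Hsd11b1 and Hsd17b2 (5.49%). With each array left out or another setting that tested all 5, the liver counts ran from 3 to 5 for diet in B6, 0 to 1 for diet in 129S6, 1 to 3 for strain on the low-fat diet and 2 to 3 for the difference of the diet effects. Since liver values, and Hsd11b1 in fat, were in view when the genes were chosen, nothing is read from their counts. In fat, Hsd11b1 alone was past it for diet in 129S6 (0.751% of genes) and for strain on the low-fat diet (1.08%). None of the 5 was for diet in B6 fat (0.279%), for strain on the high-fat diet (0.436%) or for the difference of the diet effects (0%), where 0, 1 and 1 of the 5 had an unadjusted p under 0.05, beside 1255, 709 and 232 of all 8251 genes. The fat counts ran from 0 to 2 for diet in 129S6 and for strain on either diet and from 0 to 1 for the difference of the diet effects over the same alternatives. Both Hsd11b1 calls in fat ended with the array runs as a block. The diet call also ended within its run alone, and the strain call with the array SD as a covariate. The muscle shares over all genes were 26.8% for diet in B6, 0% for diet in 129S6, 29.3% for strain on the high-fat diet, 0.279% for strain on the low-fat diet and 3.19% for the difference of the diet effects, where 0 of the 5 and 2907 of all genes had an unadjusted p under 0.05 by limma. The muscle counts ran from 0 to 1 for diet in B6 and for strain on the high-fat diet. The shares of all genes under these alternatives were not computed.

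Of 111 other genes listed for the pathway, 74 were measured. In B6 liver on the high-fat diet, 15 of the 74 fell and 2 rose, beside 990 that fell and 512 that rose among all genes. This was 23.0% against 18.2% of all genes, with a median difference of -0.02, against 0.02 over all genes. Steroid synthesis genes and hydroxysteroid dehydrogenases made up 8 of the 17 pathway genes, 7 lower and 1 higher of 19 measured. Hsd17b10, a mitochondrial dehydrogenase, fell by 1.00 ± 0.12 (adjusted p = 4.27e-05), and Hsd17b7, an enzyme of cholesterol and estradiol synthesis, rose by 0.79 ± 0.22 (adjusted p = 0.0229). Of 12 measured genes of reduction, conjugation and carriers, 3 fell, namely the sulfotransferase Sult1a1 (-0.56 ± 0.16), the ketosteroid reductase Akr1c6 (-0.46 ± 0.13) and the glucuronosyltransferase Ugt2b34 (-0.71 ± 0.24), with adjusted p = 0.0237, 0.0256 and 0.046. Among 14 genes of the receptor complex 2 fell, the immunophilin Fkbp4 (-0.46 ± 0.15, adjusted p = 0.0406) and the chaperone Hspa4 (-0.51 ± 0.14, adjusted p = 0.0193). Of 31 textbook glucocorticoid targets, 4 fell and 1 rose, with Sult1a1 counted in this list too. Several of these calls were near the threshold. Those for Ugt2b34, Fkbp4, Akr1c6 and Sult1a1 ended without any 1 of 13, 8, 6 and 4 of the 16 liver arrays. The Hsd17b7 call ended without B6 low-fat replicate 4 (0.73) or B6 high-fat replicate 15 (0.74) or 16 (0.78), and the Hspa4 call without B6 low-fat replicate 1 (-0.43) or 4 (-0.49) or B6 high-fat replicate 13 (-0.41). With the array SD as a covariate, Ugt2b34 and Sult1a1 were both at -0.07 and Akr1c6 at -0.06, and their calls ended. Those for Hsd17b7 (0.59), Hspa4 (-0.38), Fkbp4 (-0.25) and Bcl6, a repressor (-0.87), ended with it too. With the Gapdh signal as a covariate, the calls for Hsd17b7, Hspa4, Fkbp4, Ugt2b34, Akr1c6 and Sult1a1 ended (adjusted p 0.0613 to 0.16). Those for Hspa4, Fkbp4, Ugt2b34 and Akr1c6 also ended after quantile normalization. G6pc, the glucose-6-phosphatase, fell by 0.64 ± 0.11 (adjusted p = 0.000767) and Bcl6 by 1.09 ± 0.26 (adjusted p = 0.0094), and Mertk, a receptor of macrophages, rose by 0.70 ± 0.10 (adjusted p = 0.000332). The total of 17 moved with single arrays, and was 7 without B6 low-fat replicate 4 and 24 without 129S6 low-fat replicate 11. Here and for such counts below, the share of all genes in the same setting was not computed.

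In 129S6 liver G6pc was the 1 of the 74 pathway genes that passed for diet (-0.54 ± 0.11, adjusted p = 0.0498), against 0.230% of all genes. Its call ended without any 1 of 14 of the 16 liver arrays and in 8 of 10 other settings, with values from -0.61 to -0.48 and adjusted p from 0.0231 to 0.337. The diet effects of the strains differed for 4 of the 74 genes in liver, 5.41% against 5.49% of all genes. Of these, 3 were synthesis genes whose diet difference was more negative in B6, with B6 minus 129S6 at -1.45 ± 0.16 for Hsd17b10, -3.05 ± 0.59 for Hsd3b5 and -1.03 ± 0.21 for Hsd3b6 (adjusted p = 0.000186, 0.00576 and 0.00785). The other was Fkbp5, a co-chaperone that restrains the glucocorticoid receptor and is itself induced by it, at 1.18 ± 0.31 (adjusted p = 0.0364). Of all genes that passed in this comparison, 382 were more negative in B6 and 71 more positive. The Fkbp5 call ended without any 1 of 10 of the 16 arrays (adjusted p 0.0114 to 0.0753 over the alternatives), and those of the 3 synthesis genes held in every alternative tried. The count was 11 without 129S6 low-fat replicate 11. Between the strains, 5 of 74 passed on the high-fat diet, 6.76% against 5.16% of all genes. On the low-fat diet 11 passed, 14.9% against 13.8%. G6pc was higher in B6 on both, by 0.80 ± 0.11 and 0.90 ± 0.11 (adjusted p = 0.000193 and 3.39e-05), though on the high-fat diet not past the threshold with the array runs as a block (0.72, adjusted p = 0.0525). On the low-fat diet Hsd17b10 was at 10.46 in B6 and 9.13 in 129S6 livers (1.33 ± 0.12, adjusted p = 9.56e-07), a call that held in every alternative tried. H6pd, the NADPH source of the Hsd11b1 reaction, was at 10.50 in B6 and 10.84 in 129S6 livers on that diet (-0.34 ± 0.10, adjusted p = 0.0276). Fkbp5 was at 7.01 in B6 and 7.83 in 129S6 livers on it (-0.83 ± 0.22, adjusted p = 0.0208). The calls for H6pd and Fkbp5 ended with the array SD as a covariate (-0.43 for H6pd and -0.94 for Fkbp5). The H6pd call also ended without B6 low-fat replicate 1, 2 or 3 or 129S6 low-fat replicate 5 or 12 (-0.35 to -0.28), and the Fkbp5 call without B6 low-fat replicate 1 (-0.70) or 4 (-0.84) or 129S6 low-fat replicate 6 (-0.75). These counts ran from 2 (without 129S6 high-fat replicate 8 or 10) to 9 (without 129S6 low-fat replicate 11) on the high-fat diet, and from 3 (without B6 low-fat replicate 4) to 19 (without 129S6 low-fat replicate 11) on the low-fat diet.

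In fat few pathway genes passed. Mt2, a metallothionein, rose by 1.36 ± 0.21 and Anxa1, an anti-inflammatory annexin, by 1.11 ± 0.22 in 129S6 pads on the high-fat diet (adjusted p = 0.0101 and 0.0408), 2 of 74 genes against 0.751% of all genes. Both are textbook glucocorticoid targets. Of the 3 high-fat arrays of this group, 2 had the Gapdh signals of 5.81 and 5.93, and with that signal as a covariate Mt2 was at 1.21 (adjusted p = 0.0578) and Anxa1 at 0.77 (adjusted p = 0.231). Without the arrays above 3 the differences were 1.61 for Mt2 and 1.07 for Anxa1 (adjusted p = 0.00342 and 0.0361). Both calls ended with the run as a block (1.27 and 1.05, adjusted p = 0.0814 and 0.2), within the 1 run, and without 129S6 low-fat replicate 9 or 10, and the Anxa1 call without any 1 of 10 of the 14 fat arrays. In B6 pads 1 of the 74 passed for diet, against 0.279% of all genes. It was Hsd17b12, an enzyme of fatty acid elongation (1.20 ± 0.22, adjusted p = 0.0474). Its call ended without any 1 of 11 of the 14 fat arrays and in 7 of 10 other settings (adjusted p 0.0181 to 0.332). Between the strains on the low-fat diet 2 of the 74 passed, against 1.08% of all genes. Pck1, the gluconeogenic and glyceroneogenic kinase, was at 7.46 in B6 and 10.04 in 129S6 pads (-2.58 ± 0.37, adjusted p = 0.00385). Anxa1 was at 10.30 in B6 and 9.35 in 129S6 pads (0.95 ± 0.21, adjusted p = 0.0473). The Pck1 call ended with the runs as a block (-2.37, adjusted p = 0.139), and the Anxa1 call without any 1 of 12 of the 14 arrays. Without B6 high-fat replicate 7 the count for diet in 129S6 was 10, and without 129S6 low-fat replicate 9 or 10 it was 0. In muscle 17 of the 74 passed for diet in B6 and 32 for strain on the high-fat diet, 23.0% and 43.2% against 26.8% and 29.3% of all genes. The SD of each array was 1.59 to 1.70 on the B6 high-fat muscle arrays, against 1.81 to 1.88 on the B6 low-fat ones. With it as a covariate, the muscle counts were 1 and 2, and the shares of all genes were not computed.

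Genes were ranked by Pearson's r with each member over the 16 liver arrays among 5087 genes with a mean above 6, as a description over arrays that share tissue, strain and diet groups. Nearest to Hsd11b1 were Acp6, a lysophosphatidic acid phosphatase (r = 0.93), Apoh, a plasma glycoprotein (0.92), and Hsd3b5 (0.91). Hsd17b2 was followed most closely by Serpind1, or heparin cofactor (0.96), the complement gene C8g (0.94) and the mitochondrial ribosomal gene Mrps24 (0.92), and Hsd3b2 by Tpmt, a thiopurine methyltransferase (0.95), Ocel1 (0.95) and Pebp1 (0.94). For Cyp17a1 the first was Dntt (0.89), followed by Sox4 and Exosc4 (both 0.78), and for Nr3c1 the first 3 were Timp2, Rxra and Dnajc5 (0.91, 0.91 and 0.90). Over the 14 fat arrays and 5154 genes, Hsd11b1 ran closest to the complement gene C2 (0.94), Cyp2e1, an ethanol-oxidising cytochrome P450 (0.94), and Retn, the adipokine resistin (0.90). None of the 3 nearest genes of Hsd11b1 in fat was among its 3 nearest in liver. Nothing is read from this, since lists of 3 from 5087 and 5154 genes would usually share none. Hsd3b5, with group means of 3.95 to 4.19 in fat, was below the limit of 6 and could not be listed there.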

How the data were processed

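RNA of liver, epididymal fat and skeletal muscle was extracted with RNeasy columns and hybridised to Affymetrix mouse arrays, per the labels' protocols. The deposited log2 values were made by the authors with RMA, per the submitters' processing notes, and ran from 2.26 to 14.26 with array medians of 6.07 to 6.24, so that array number, not read depth, limits precision. The SD over an array's probe sets ran from 1.57 to 1.98, so the deposited arrays do not share 1 distribution, and quantile normalization and the array SD were among the alternatives.

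Probe sets were named from the platform annotation, with symbols updated by Entrez ID for 10817 of them. Of 12488 probe sets, 66 were controls, 10833 had 1 symbol, 396 several and 1193 none. The brightest probe set per gene in a tissue entered the fit (8251 genes). limma 3.58.1 in R 4.3.3 fitted the 4 group means per tissue, and p-values were two-sided with Benjamini-Hochberg adjustment over 8251 genes at a threshold of 0.05. Liver minus fat came from a fit of 12 group means over 45 arrays. Values stated beside ± after a difference are standard errors. Figures were drawn with matplotlib 3.10.9. The fit was tested on simulated data. A replicate is a pool of mice, so p-values measure the spread between pools.

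The members and the pathway and marker lists were chosen with earlier results of these data known. Named were the members, up to 3 pathway genes per list, comparison and direction with the smallest adjusted p among those past the threshold, the measured Hsd3b family, and the 3 genes of most like pattern. Alternatives were all probe sets, quantile normalization, a filter on dim genes, only the 2 groups compared, an intensity trend, the array run as a block or alone, Gapdh and array SD covariates, and each array left out. Leaving out arrays with a Gapdh signal above 3 was chosen after seeing the data and was not done in the muscle fit.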

Additional observations from a re-analysis of the deposited data

Results flagged for a closer look

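Of 54 groups of 4 arrays set against Dixon's critical value, 5 held a value past it, where chance flags about 1 in 20. These were Cyp17a1 at 6.924 on B6 low-fat fat replicate 3, Cyp17a1 at 7.963 on B6 high-fat liver replicate 14, Hsd3b2 at 9.52 on 129S6 high-fat liver replicate 8, Nr3c1 at 2.85 on B6 high-fat fat replicate 7, and Nr3c1 at 3.378 on 129S6 low-fat liver replicate 11. The last 2 arrays had Gapdh 3' minus 5' signals of 6.03 and 3.26, and the part of this in the values was not tested.

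The diet difference in liver differed between the strains by limma's interaction term for 4 pathway genes named here. B6 minus 129S6 was -1.45 for Hsd17b10, -3.05 for Hsd3b5, -1.03 for Hsd3b6 and 1.18 for Fkbp5. All B6 low-fat livers were in an array run of their own, which cannot be told apart from that group in these differences.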

How the results depend on the processing

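No result changed direction while past the threshold. For Hsd11b1, leaving out each array in turn gave diet differences of -1.48 to -1.31 in B6 liver, -0.19 to 0.07 in 129S6 liver, -0.50 to -0.12 in B6 fat and -1.98 to -1.58 in 129S6 fat. Liver minus fat ran from 1.24 to 1.63 (B6 high-fat), 2.43 to 2.60 (B6 low-fat), 2.67 to 3.07 (129S6 high-fat) and 1.02 to 1.38 (129S6 low-fat), and the diet difference in liver minus that in fat from -1.28 to -0.89 in B6 and 1.51 to 1.91 in 129S6. The 129S6 fat diet difference was -1.62 with the array run as a block or within its own run, and the cause was not tested. Quantile normalization over all arrays gave 2.15 for liver minus fat in low-fat B6 mice and -0.72 for the B6 diet difference between the tissues. Without arrays whose Gapdh signal was above 3, liver minus fat in 129S6 on the high-fat diet was 3.44 and the 129S6 diet difference between the tissues 2.42. B6 low-fat liver and fat share replicate numbers 1, 3 and 4, and 129S6 low-fat liver and fat share number 11 alone, too few for a block. With the B6 numbers as a replicate block liver minus fat was 2.49, against 2.52 without, and deviations of same-numbered arrays correlated at 0.006, -0.19 and -0.12 in B6 and -0.06 for number 11, so the numbers were not taken as pairs.

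Counts among the 74 pathway genes moved more. The share of all genes past the threshold was not computed in these settings, so the shifts are not read as a trait of the pathway genes. Leaving out each array gave 7 to 24 for diet in B6 liver, 0 to 1 in 129S6 liver, 3 to 19 for strain in liver on the low-fat and 2 to 9 on the high-fat diet, and 3 to 11 for strain by diet in liver. In muscle it gave 2 (without B6 low-fat replicate 13) to 33 (without 129S6 low-fat replicate 9) for diet in B6, 0 to 0 in 129S6, 0 to 1 for strain on the low-fat and 12 (without 129S6 high-fat replicate 4) to 40 (without 129S6 low-fat replicate 9) on the high-fat diet. In fat it gave 0 to 3 for diet in B6, 0 to 10 in 129S6, 1 to 8 for strain on the low-fat and 0 to 13 on the high-fat diet. The count of 1 for diet in 129S6 liver was 0 with all probe sets, quantile normalization, only the 2 groups, the intensity trend, the run as a block or alone, the Gapdh covariate and without arrays above 3. For diet in B6 fat the count of 1 was 0 with all probe sets, quantile normalization, only the 2 groups, the trend, the block, the array SD and its run alone, and 3 without arrays above 3. All probe sets gave 7 for strain by diet in liver, 26 for diet in B6 muscle and 1 for strain in low-fat fat. Quantile normalization gave 10 for diet in B6 liver. Only the 2 groups gave 29 for diet in B6 liver, 3 and 11 for strain in low-fat and high-fat liver, 6 for diet in 129S6 fat and 16 for strain in low-fat fat. The trend and the block each gave 1 for strain in low-fat fat, and for diet in 129S6 fat 1 and 0. The block gave 2 for strain in high-fat liver, and the run alone 0 for diet in 129S6 fat. The Gapdh covariate gave 8 for strain in high-fat liver, 12 for strain by diet in liver, 0 for diet in 129S6 fat and 9 for strain in low-fat fat. The array SD gave 6 and 9 for strain in low-fat and high-fat liver, 13 for strain by diet in liver, 1 for diet in B6 muscle, and 2 for strain in muscle on either diet. Without arrays above 3 the counts were 19, 9 and 11 for strain in low-fat liver, strain in high-fat liver and strain by diet in liver, 4 for diet in 129S6 fat, and 13 and 2 for strain in low-fat and high-fat fat. The filter on dim genes left Nr3c1 in all tissues, and Hsd17b2 and Hsd3b2 in muscle and fat, out of the test. The array run as a block could not be fitted for diet in B6 liver, strain in low-fat liver or strain by diet in liver.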
